A study of Mus musculus with 16 samples.

Results

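Interleukin 2, the 3 chains of its receptor, the STAT5 transcription factors and 4 feedback inhibitors were described in CD4+ T cells that met antigen not at all, briefly or continuously in mice. The 10 genes are Il2, Il2ra, Il2rb, Il2rg, Stat5a, Stat5b, Cish, Socs1, Socs2 and Socs3. They were found by gene symbol in the array's annotation, and each gene was read from the probe set (the group of array probes for one transcript) with the highest mean over the 16 arrays. Of the 10, only Il2rg had no probe set named in the annotation used here. The common gamma chain was therefore not analysed here, and 9 of the 10 genes were measured among 18193 genes in all. They have 20 probe sets, and none of the 9 was removed by a filter on low values.

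The cells came from mice transgenic for the AND T cell receptor, which recognises a peptide of moth cytochrome c, and carried the marker CD90.1. They were transferred into recipients on the B10.BR background, aged 6 to 8 weeks, and CD4+CD90.1+ cells were sorted from subcutaneous lymph nodes 60 hours later (the label of 1 array gives no tissue). Recipients without antigen carried the transgenes Ii-rTA-, TIM+ and had no doxycycline, with 3 arrays after PBS and 2 after FGK. Recipients with transient antigen were Ii-rTA+, TIM+ with short doxycycline (3 PBS, 2 FGK), and those with persistent antigen were Ii-rTA+, TIM+ with long doxycycline (3 PBS, 3 FGK). FGK45.5 is a stimulatory antibody against CD40, given to activate dendritic cells, and PBS is the control injection. Absence of antigen therefore came together with another recipient genotype and no doxycycline, and these cannot be told apart. All donor T cells share 1 receptor transgene, and the design text ties antigen to a promoter under doxycycline control. No label states that the replicates are separate animals. The p-values therefore refer only to the spread among these arrays, which may be technical.

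As background, IL-2 is the growth factor that activated T cells secrete. The alpha chain of its receptor (Il2ra, CD25) adds affinity, while the beta chain (Il2rb, CD122) and the common gamma chain (Il2rg) carry the signal through JAK kinases to STAT5A and STAT5B. STAT5 dimers bind DNA at sites of the form TTCNNNGAA and switch on, among others, the genes of the SOCS family (Cish, Socs1, Socs2, Socs3), whose proteins block cytokine receptors in a feedback loop. Transcription of Il2 itself starts when receptor signals bring NFAT, AP-1 and NF-kappaB factors to a short stretch before the gene's start.

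Promoter sequence from RefSeq (build GRCm38.p6, 250 bases before to 50 after the start) was held for 8 of the 10 genes, with 10 promoters in all. The stretches below are shown because they hold every match found among these genes to the STAT5 motif TTCNNNGAA, which reads the same on both strands, and, for Il2, to the NFAT core motif (GGAAAA, or TTTTCC on the other strand). Each is printed 5′ to 3′ on the gene's strand. Capitals mark the NFAT core in Il2 and TTCNNNGAA in Cish and Socs3.
Il2 promoter, chr3:37125955-37126104, minus strand, the 150 bases before the start: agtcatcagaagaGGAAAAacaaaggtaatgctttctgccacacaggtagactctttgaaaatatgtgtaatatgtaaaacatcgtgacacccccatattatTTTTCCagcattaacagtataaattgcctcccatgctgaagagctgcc
Cish promoter, chr9:107296599-107296688, plus strand, 60 bases before to 30 after the start: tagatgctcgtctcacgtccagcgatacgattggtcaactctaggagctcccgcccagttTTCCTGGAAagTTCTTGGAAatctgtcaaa
Socs3 promoter, chr11:117969477-117969536, minus strand, 60 bases from 170 before the start: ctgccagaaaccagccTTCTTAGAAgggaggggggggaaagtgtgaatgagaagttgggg
TTCNNNGAA occurred in 2 of the 10 promoters, those of Cish and Socs3, against 8.30% of 32851 promoters of the same length. In Cish the matches lie 1 and 12 bases after the start, and in Socs3 the match begins 154 bases before it. The NFAT core occurred in 2 of the 10 promoters against 23.4% of all. In Il2 the cores begin 137 and 48 bases before the start. In Cish a TTTTCC begins 2 bases before the start and overlaps the first TTCNNNGAA. A match is a run of letters, and binding was not measured here.

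Values are the authors' intensities as log2(intensity + 1), and differences are on that scale with their standard errors. A gene is called where limma's adjusted p, over all 18193 genes, is under 0.05. The arrays carry replicate numbers, and arrays of the same number resembled each other, so each difference was also fitted with that number as a block. By the runs of numbers in the sample descriptions, replicate 2 lay in run 3 without antigen and in run 4 with antigen. Replicates 1 and 3 each kept to 1 run. Within replicate 2, a difference from no antigen therefore also crosses runs, and antigen and run cannot be told apart there. Of 108 pairs of a measured member and a comparison (9 genes, 12 comparisons), limma called 1 without the block and 7 with it, while 19 and 26 had an unadjusted p under 0.05. All 7 lay in Il2, Il2ra and Il2rb.

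**Figure D1:**
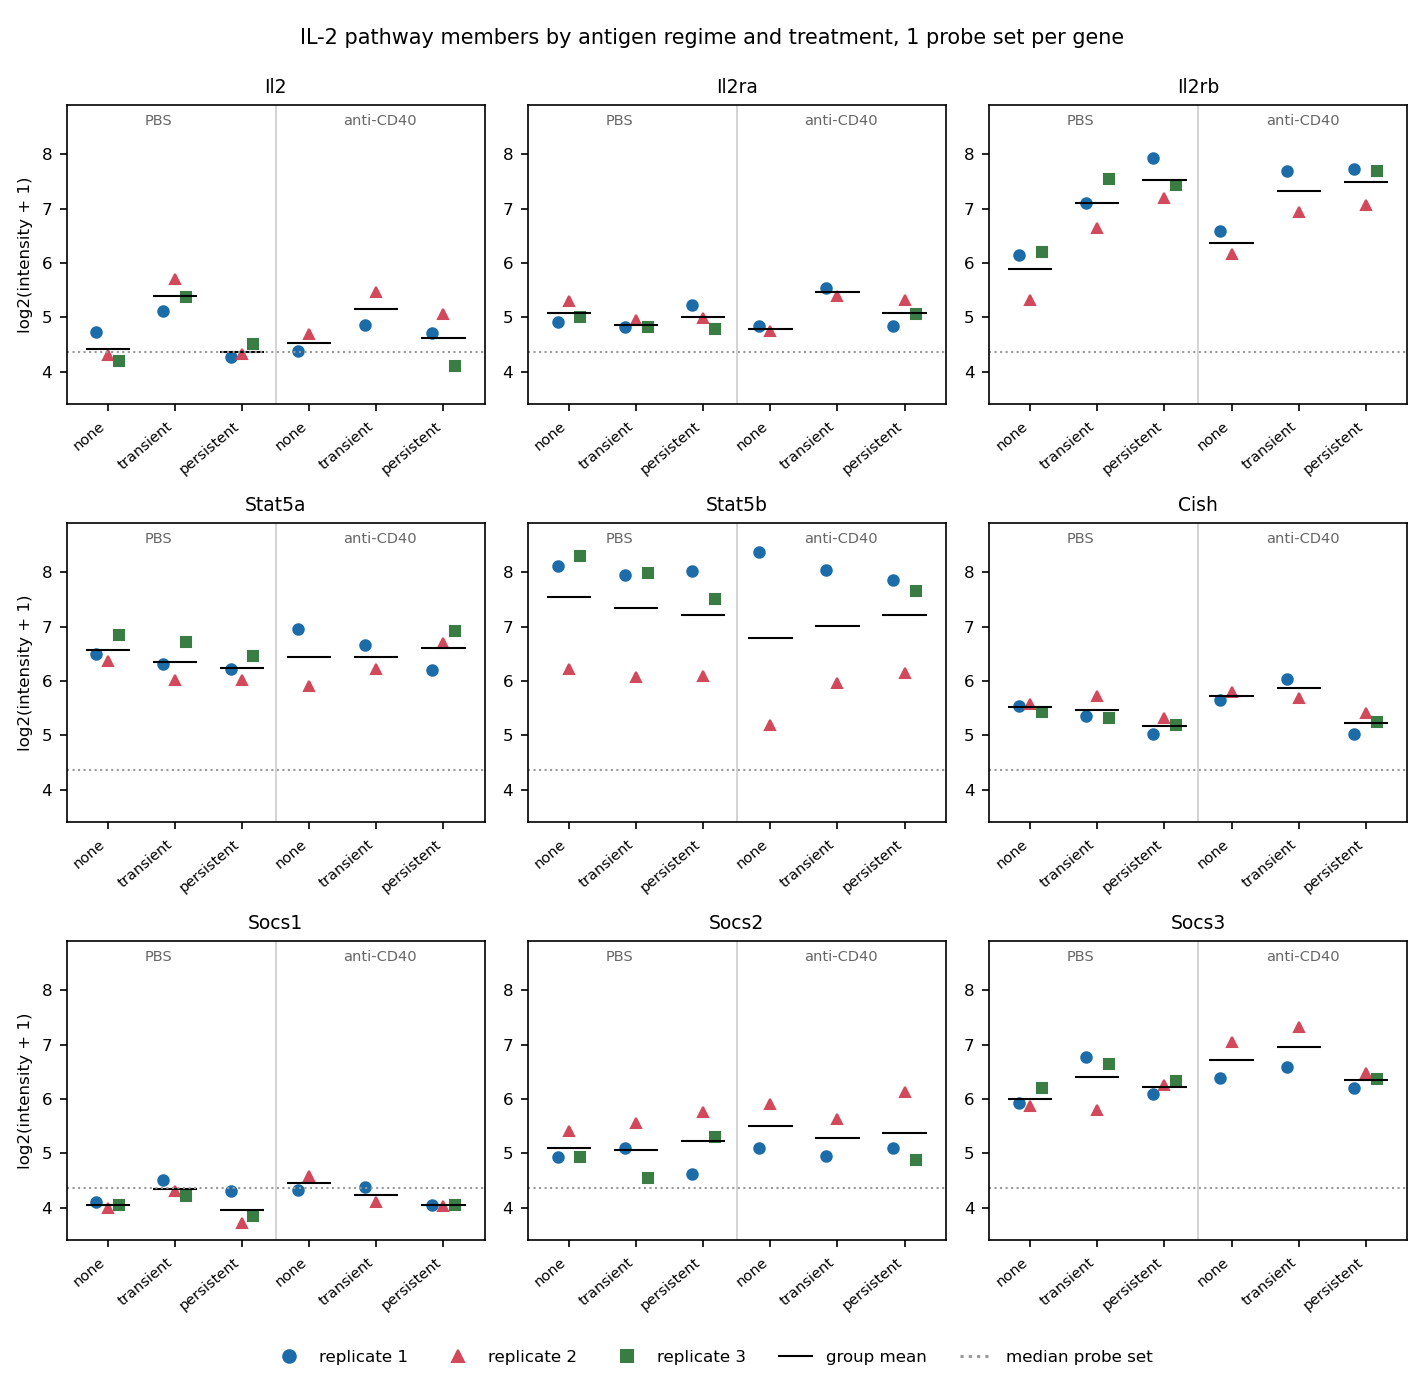
Log2(intensity + 1) of 9 genes (y axis) by antigen regime (x axis), PBS left and anti-CD40 (FGK) right in each panel; points are arrays, marked by replicate number, bars are group means, and the dotted line is the median probe set, at 4.37. Il2 is highest in the transient groups, Il2rb is higher in every array with antigen than in every array without, and Stat5b and Socs2 separate by replicate 2.

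Il2, the cytokine gene, was highest under transient antigen. After PBS its arrays read 4.72, 4.30 and 4.20 without antigen (replicates 1, 2 and 3), 5.11, 5.71 and 5.37 with transient antigen, and 4.27, 4.32 and 4.51 with persistent antigen. The 3 transient arrays lay above all 6 others, and the groups without antigen and with persistent antigen overlapped around the median probe set (4.37), a level at which an array does not separate a weak signal from none. In this comparison of transient antigen with none, 3 of 9 members (Il2, Il2rb and Socs1) had arrays that did not overlap between the groups, against 10.1% of all genes. Transient antigen minus none was 0.99 ± 0.25 (adjusted p = 0.26), and with the replicate block 0.99 ± 0.21 (adjusted p = 0.010). Within the numbers the difference was 0.39, 1.41 and 1.16, higher in 3 of 3, of which replicate 2 (1.41) crossed runs. The unblocked test called 0 of 9 members (2 at an unadjusted p under 0.05) there and 0.126% of all genes. The block called 2 of 9 (Il2 and Il2rb, both higher) against 2.89% of all genes.

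Persistent minus transient antigen after PBS was -1.03 ± 0.25 for Il2 (adjusted p = 0.072), and with the block -1.03 ± 0.21 (adjusted p = 0.0022). Within the numbers it was -0.84, -1.39 and -0.86, lower in 3 of 3. With the block Il2 was the 1 member of 9 called in this comparison, where 11.4% of all genes were. Without it 0 of 9 were called (2 at an unadjusted p under 0.05), against 0.929%. The arrays of persistent and transient antigen did not overlap for 2 of 9 members (Il2 and Cish), against 17.5% of all genes. Persistent antigen minus none left Il2 at -0.04 ± 0.25 (adjusted p = 0.98).

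With FGK, Il2 read 4.39 and 4.68 without antigen, 4.85 and 5.46 with transient antigen, and 4.70, 5.05 and 4.11 with persistent antigen. The transient arrays lay above both arrays without antigen but overlapped the persistent ones. Transient minus none was 0.62 ± 0.31 (adjusted p = 0.53, and 0.12 with the block), and persistent minus transient was -0.53 ± 0.28 (adjusted p = 1). The transient difference with FGK minus that with PBS was -0.37 ± 0.39 (adjusted p = 1, and 0.65 with the block), so a change of the Il2 response with anti-CD40 was not detected. In the order of group means (transient PBS 5.39 ± 0.30, transient FGK 5.15, persistent FGK 4.62 ± 0.48, none FGK 4.54, none PBS 4.41 ± 0.28, persistent PBS 4.37 ± 0.12, SD), the gap from transient FGK to persistent FGK was the 1 gap between neighbours beyond their SD. In sorted bulk cells, a smaller share of cells with a transcript and less transcript per cell cannot be told apart.

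Il2ra, the alpha chain, was read by 2 probe sets that differed in range. The brighter on average, 1420691_at, read 4.91, 5.30 and 5.01 without antigen after PBS, 4.82, 4.95 and 4.81 with transient antigen and 5.23, 4.98 and 4.79 with persistent antigen. After FGK it read 4.83 and 4.75 without antigen, 5.54 and 5.39 with transient antigen and 4.84, 5.32 and 5.06 with persistent antigen. Both arrays with transient antigen and FGK lay above all 14 others, of which the nearest read 5.32.

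Transient antigen minus none with FGK was 0.68 ± 0.21 for this probe set (adjusted p = 0.18, and 0.027 with the block, SE 0.20), with 0.71 and 0.64 within the numbers. The unblocked test called 0 of 9 members there (2 at an unadjusted p under 0.05), against 0.572% of all genes, and the block called 2 (Il2ra and Il2rb), against 14% of all genes. Arrays did not overlap for 3 of 9 members (Il2, Il2ra and Il2rb), against 28.2% of all genes. The Il2ra call was lost without either none FGK array or without transient FGK replicate 1, with adjusted p between 0.050 and 0.26. FGK minus PBS under transient antigen was 0.61 ± 0.19 (adjusted p = 0.20, and 0.57 ± 0.19 with adjusted p = 0.060 under the block). In that comparison 0 of 9 members were called by either fit (1 and 2 at an unadjusted p under 0.05), against 0.638% and 10.5% of all genes, and Il2ra was the 1 member of 9 whose arrays did not overlap, against 21.6%.

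The second probe set of Il2ra, 1420692_at, had the wider range. After PBS it read 4.12, 4.21 and 4.29 without antigen, 3.74, 4.12 and 3.88 with transient antigen and 4.93, 4.80 and 4.73 with persistent antigen. After FGK it read 4.09 and 4.55 without antigen, 7.51 and 5.44 with transient antigen and 4.59, 6.10 and 4.77 with persistent antigen. The transient PBS arrays were all under the median probe set, and the highest values were replicate 1 of transient FGK and replicate 2 of persistent FGK.

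In a fit over all 45037 probe sets, chosen after these values were seen, FGK minus PBS under transient antigen was 2.56 ± 0.49 for 1420692_at (adjusted p = 0.054), and with the block 2.51 ± 0.44 (adjusted p = 0.0014), in a comparison that called 0.22% of probe sets without the block and 7.48% with it. Transient minus none with FGK was 2.15 ± 0.54 (adjusted p = 0.12), and with the block 2.15 ± 0.47 (adjusted p = 0.0053), against 0.222% and 10.7% of probe sets called. The transient difference with FGK minus that with PBS was 2.45 ± 0.69 without the block (adjusted p = 0.96) and 2.45 ± 0.61 with it (adjusted p = 0.043), against 0% and 2.18% of probe sets called, while 1420691_at gave 0.89 ± 0.27 in the fit over genes (adjusted p = 0.75, and 0.061 with the block). The probe sets thus shared the direction in transient FGK and differed in size, and under persistent antigen after PBS, 1420692_at stood above the groups without antigen (0.62 ± 0.44, adjusted p = 0.70) where 1420691_at did not (-0.07 ± 0.17, adjusted p = 0.95). After PBS, 1420692_at was 4.21 ± 0.09 without antigen, 3.91 ± 0.19 with transient and 4.82 ± 0.10 with persistent antigen (SD). The standard error of 0.44 pools all groups, among them persistent FGK with an SD of 0.82.

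**Figure D2:**
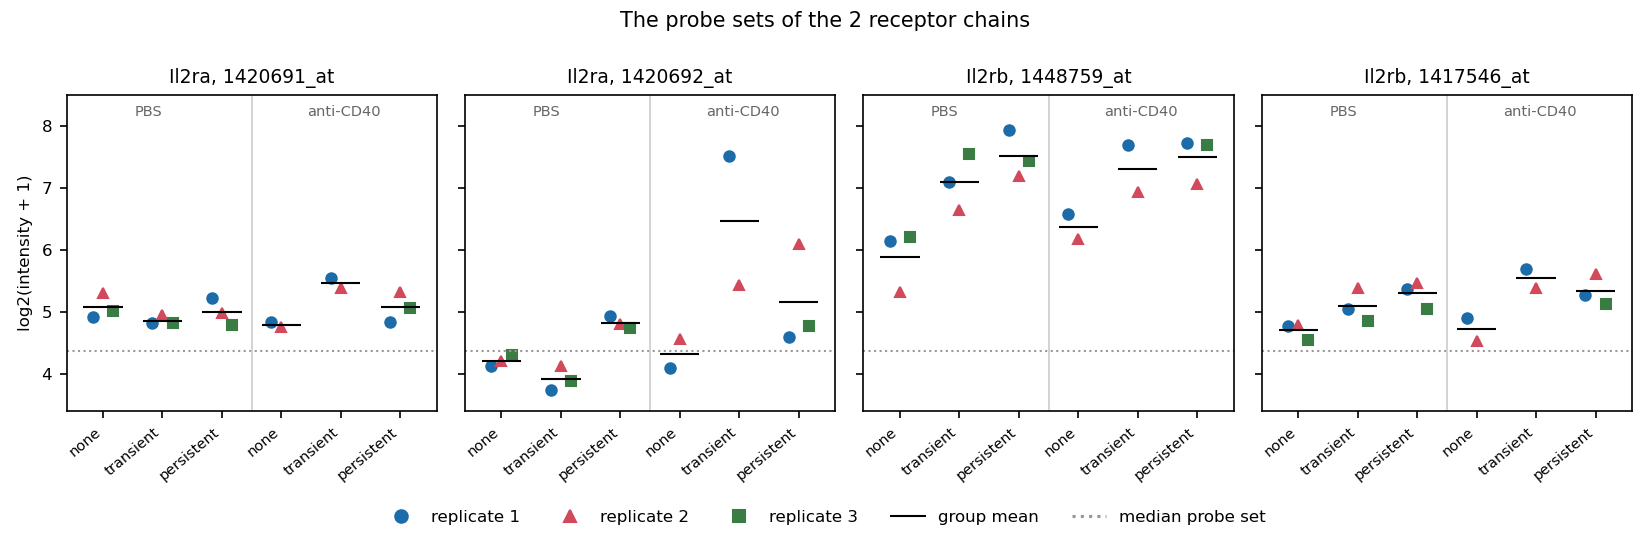
Log2(intensity + 1) (y axis) of both probe sets of Il2ra and of Il2rb by antigen regime (x axis), PBS left and anti-CD40 (FGK) right; points are arrays marked by replicate number, bars are group means, the dotted line is the median probe set at 4.37. 1420692_at of Il2ra reaches 7.51 and 5.44 with transient antigen and FGK, and 1448759_at of Il2rb rises with antigen.

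Il2ra also marks regulatory T cells, so their other markers were read in the same arrays. Foxp3, the defining factor of that lineage, ranged from 3.03 to 4.39 and was above the median probe set in 1 of 16 arrays. The other 8 measured markers (Ikzf2, Tnfrsf18, Nrp1, Gpr83, Ctla4, Izumo1r, Ikzf4 and Itgae) were above it in 16 of 16. The intensities of the 9 measured regulatory T cell markers summed to 1035 and 1582 in the transient FGK arrays, 1157 to 2290 in transient PBS and 1025 and 2233 in none FGK, with overlapping ranges. The part of regulatory T cells in the Il2ra result was not tested.

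Il2rb, the beta chain that carries the signal, was higher with antigen of either duration. After PBS it read 6.15, 5.31 and 6.21 without antigen, 7.10, 6.64 and 7.55 with transient antigen and 7.93, 7.20 and 7.43 with persistent antigen. After FGK it read 6.58 and 6.17, then 7.69 and 6.94, then 7.72, 7.07 and 7.69. All 11 arrays with antigen, the lowest at 6.64, lay above all 5 without, the highest at 6.58.

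Persistent antigen minus none after PBS was 1.63 ± 0.34 for Il2rb (adjusted p = 0.013), and it was higher within 3 of 3 replicate numbers (1.79, 1.89 and 1.23, replicate 2 across runs). It was the 1 member of 9 called there, against 3.57% of all genes, and it remained the 1 called with the block (adjusted p = 1.5e-06), against 16.7%. Arrays did not overlap for 2 of 9 members (Il2rb and Cish), against 18.0% of all genes. Without the block the call was lost when none PBS replicate 2 or persistent PBS replicate 1 was left out (adjusted p = 0.067 and 0.083) or when the 6 arrays compared were fitted alone (0.050).

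The other rises of Il2rb were called with the block only. Transient minus none after PBS was 1.20 ± 0.34 (adjusted p = 0.39), and with the block 1.20 ± 0.17 (adjusted p = 0.00047). With FGK, transient minus none was 0.94 ± 0.41 (adjusted p = 0.43, and 0.0050 with the block), and persistent minus none was 1.12 ± 0.38 (adjusted p = 0.17), or 1.01 ± 0.20 with the block (adjusted p = 0.0013). In the last comparison 0 of 9 members were called without the block (3 at an unadjusted p under 0.05), against 2.37% of all genes, and 1 of 9 with it, against 16.4%, while arrays did not overlap for 4 of 9 (Il2ra, Il2rb, Cish and Socs1), against 27.7%. The transient call with FGK was lost without none FGK replicate 1 or transient FGK replicate 1 (adjusted p = 0.057 and 0.075 with the block). These comparisons share the arrays without antigen.

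Differences of Il2rb by duration and by anti-CD40 were not called. Persistent minus transient was 0.43 ± 0.34 after PBS (adjusted p = 0.72, and 0.13 with the block) and 0.18 ± 0.38 after FGK (adjusted p = 1), and FGK minus PBS was 0.49 ± 0.38 without antigen, 0.22 ± 0.38 with transient and -0.03 ± 0.34 with persistent antigen, all at an adjusted p of 1. Group means ran from persistent PBS (7.52 ± 0.37) through persistent FGK (7.50 ± 0.37), transient FGK (7.31) and transient PBS (7.09 ± 0.45) to none FGK (6.37) and none PBS (5.89 ± 0.50, SD), and only the gap between transient PBS and none FGK exceeded the SD of its neighbours. The second Il2rb probe set, 1417546_at, gave 0.60 ± 0.16 for persistent minus none after PBS with the block (adjusted p = 0.017), 0.82 ± 0.20 and 0.72 ± 0.19 for transient and persistent antigen with FGK (adjusted p = 0.011 and 0.014), and 0.39 ± 0.16 for transient minus none after PBS (adjusted p = 0.28). In these comparisons the blocked fit over all probe sets called 14.7%, 10.7%, 13.2% and 1.92%, in that order, and the unblocked one 2.5%, 0.222%, 1.45% and 0.04%, without this probe set.

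Il2rb is also abundant in natural killer and memory CD8 T cells. Of the 7 markers listed for these cells 6 were measured. Cd8a (4.90 to 5.83), Eomes (4.70 to 7.24) and Klrd1 (6.74 to 8.17) were above the median probe set in 16 of 16 arrays, and Cd8b1, Ncr1 and Klra8 in 0 of 16. The list's summed intensity after PBS was 310.2 to 400.8 without antigen, 224 to 275 with transient and 215 to 324 with persistent antigen, and after FGK 314 to 467, 268 to 399 and 201 to 322. Of 9 B cell markers 8 were measured. Cd22 (6.41 to 8.32) and Ms4a1 (4.45 to 7.66) were above the median probe set in 16 of 16 arrays, Fcer2a in 10, Blnk in 5, Cd79b in 4, and Cd79a, Pax5 and Cr2 in 0. Their intensities after PBS summed to 249 to 299 without antigen, 244 to 305 with transient and 338 to 462 with persistent antigen, and after FGK to 287 to 468, 347 to 370 and 355 to 446. The B cell sums were thus higher with persistent antigen than without after PBS, where Il2rb was higher, but overlapped under transient antigen after PBS and after FGK. The natural killer and CD8 sums were lower with transient antigen than without after PBS, where Il2rb was also higher. They overlapped those without antigen under persistent antigen after PBS and under both regimes after FGK. The part of these cells in the Il2rb result was not tested.

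**Figure D3:**
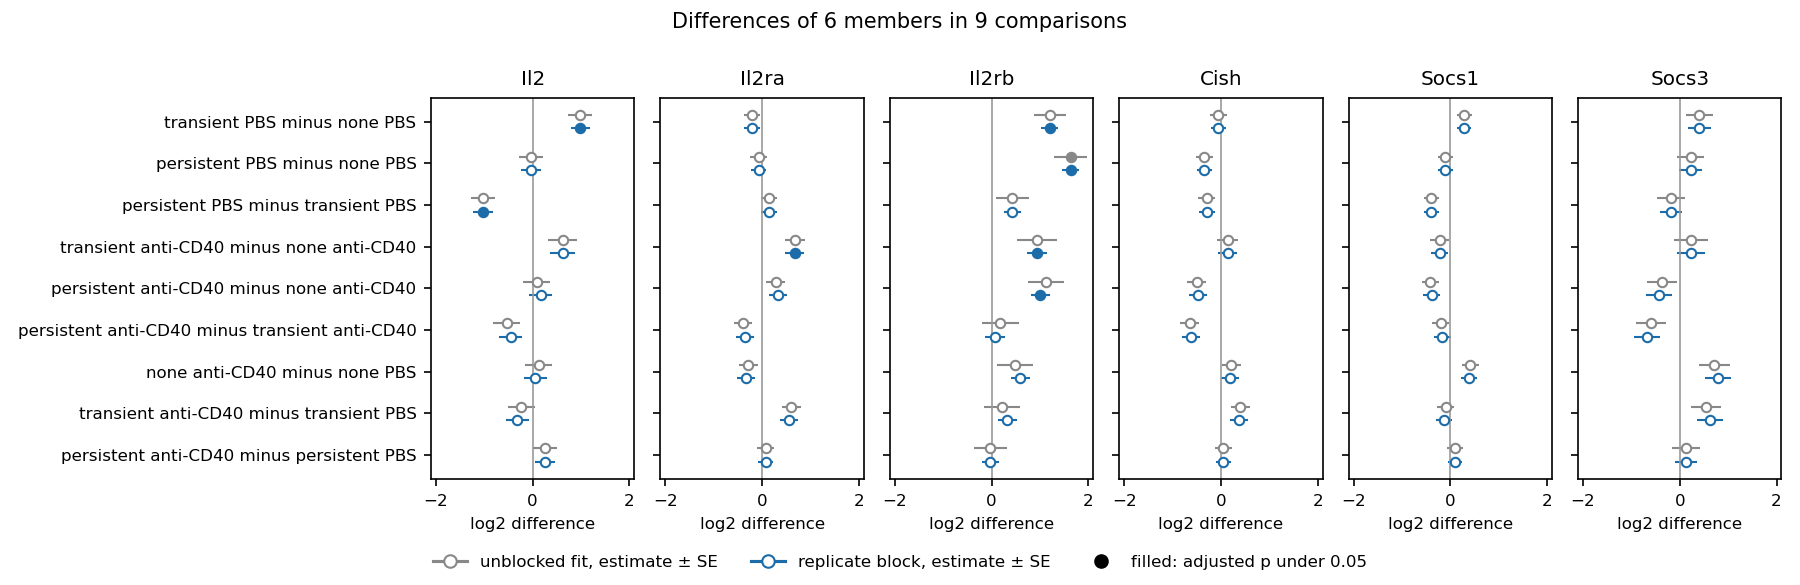
Log2 differences (x axis) of 6 genes in 9 comparisons (y axis) with bars of 1 standard error, without the replicate block (grey) and with it (blue); filled points have an adjusted p under 0.05. Filled points lie in Il2, Il2ra and Il2rb; Cish, Socs1 and Socs3 have none.

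The signal transducers Stat5a and Stat5b were called in 0 of 12 comparisons each, with 0 at an unadjusted p under 0.05, by either fit. Stat5a ranged from 5.90 (none FGK replicate 2) to 6.96 (none FGK replicate 1), with group means between 6.23 (persistent PBS) and 6.61 (persistent FGK), and every pair of groups overlapped. Its second probe set stayed between 2.62 and 3.01, under the median probe set in all 16 arrays. Stat5b separated by replicate number instead of by group. Its replicate 2 arrays read 5.19 to 6.23 and the others 7.51 to 8.37, so replicate 2 was the lower within 6 of 6 groups, with a median difference of -1.93. Its other probe set, 1422102_a_at, read 4.68 to 5.31 over all arrays. The standard error of a Stat5b difference was therefore 0.89 between the PBS groups without the block and 0.23 with it, and the blocked differences ran from -0.49 to 0.43.

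Of the feedback inhibitors, Cish, which docks on the activated receptor and is a classical STAT5 target, was lowest under persistent antigen. It read 5.54, 5.58 and 5.42 without antigen after PBS, 5.36, 5.71 and 5.32 with transient antigen and 5.02, 5.31 and 5.19 with persistent antigen. After FGK it read 5.65 and 5.80, then 6.04 and 5.69, then 5.03, 5.41 and 5.24. The arrays with persistent antigen lay below every array of the same treatment in the other regimes, though after PBS the highest of them, 5.31, nearly met the lowest with transient antigen, 5.32.

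No Cish difference passed the threshold in either fit of all arrays. Persistent minus none was -0.34 ± 0.18 after PBS (adjusted p = 0.45, and 0.18 with the block) and -0.50 ± 0.20 after FGK (adjusted p = 0.26, and 0.091 with the block). Persistent minus transient with FGK was -0.64 ± 0.20 (adjusted p = 1, and 0.58 with the block), in a comparison that called 0 of 9 members (1 and 2 at an unadjusted p under 0.05 in the 2 fits), against 0.0055% and 0.077% of all genes. Arrays did not overlap there for 4 of 9 members (Il2ra, Cish, Socs1 and Socs3, all lower), against 12.2% of all genes. Transient FGK minus persistent PBS was 0.69 ± 0.20 (adjusted p = 1, and 0.18 with the block), where 0 of 9 members were called by either fit (4 at an unadjusted p under 0.05 in each), against 0% and 0.055% of all genes, and 4 of 9 (Il2, Il2ra, Cish and Socs3) did not overlap, against 14.5%. Of the 12 comparisons Cish had 3 at an unadjusted p under 0.05 without the block and 4 with it. Cish is the gene with both TTCNNNGAA matches next to its start, printed above.

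Socs1, an inhibitor of JAK kinase activity, was read by 1 probe set with a mean under the median probe set. It ranged from 3.71 to 4.59, with the highest group mean without antigen after FGK (4.33 and 4.59) and the lowest with persistent antigen after PBS (4.30, 3.71 and 3.84). Its lowest adjusted p was 0.30 without the block and 0.10 with it (persistent minus transient after PBS, -0.39 ± 0.15), and 3 and 4 of 12 comparisons had an unadjusted p under 0.05.

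Socs2, which dampens growth hormone and STAT5 signals, was called in 0 of 12 comparisons by either fit, with 0 at an unadjusted p under 0.05. On its brightest probe set, 1442586_at, replicate 2 arrays read 5.42 to 6.12 and the others 4.55 to 5.30. Replicate 2 was thus the higher within 6 of 6 groups there, and blocked differences ran from -0.22 to 0.27. The next brightest, 1449109_at, lay under the median probe set in most arrays and lacked this pattern. With transient antigen it read 3.78, 3.96 and 3.77 after PBS and 4.94 and 4.32 after FGK, replicate 2 being the lower after FGK. The remaining Socs2 probe sets were dimmer.

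Socs3, an inhibitor of receptors that signal through gp130 and STAT3, was higher with FGK where antigen was absent. It read 5.92, 5.88 and 6.20 after PBS and 6.38 and 7.05 after FGK without antigen. With transient antigen it read 6.77, 5.79 and 6.65 after PBS and 6.58 and 7.31 after FGK, which overlapped, and with persistent antigen 6.08 to 6.34 and 6.21 to 6.47. Those values are of the brightest Socs3 probe set, 1455899_x_at. Without antigen 1456212_x_at read 5.47 to 5.85 after PBS and 6.21 and 6.69 after FGK. In the same groups 1416576_at, near the median probe set, read 4.07 to 4.24 and then 4.25 and 4.29. On the brightest probe set, FGK minus PBS without antigen was 0.71 ± 0.32 (adjusted p = 1), and 0.79 ± 0.27 with the block (adjusted p = 0.90). That comparison called 0 of 9 members (2 and 3 at an unadjusted p under 0.05), against 0% and 0.0055% of all genes, and 4 of 9 (Il2ra, Cish, Socs1 and Socs3) did not overlap, against 10.8%. Under persistent antigen FGK minus PBS lay between -0.03 and 0.38 for the 9 members, with 0 called and 0 at an unadjusted p under 0.05 by either fit, against 0% of all genes in both, and 0 of 9 had arrays that did not overlap, against 3.48%.

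The replicate numbers moved with several members. On the probe set chosen per gene, replicate 2 was lower than the other arrays within 6 of 6 groups in Il2rb (median -0.66) and Stat5b (median -1.93). It was higher in 6 of 6 in Socs2 (median 0.76), and near 0.00 for the median gene. Array means were 83.5 to 101 in replicate 2 and 106 to 121 in the others, and array medians 19.6 to 21.3 in replicate 2 and 18.2 to 19.3 in the others. The part of this in the unblocked standard errors was not tested beyond the blocked fit. Of the T cell markers 9 of 12 were measured and all 9 were above the median probe set in every group, among them Cd4 (6.98 to 8.00) and Thy1 (7.54 to 10.27), the gene of CD90.

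The receptors and cytokines that share the common gamma chain were all measured (10 of 10). Il7r, the IL-7 receptor alpha chain, was 10.62 ± 0.27 (SD, n = 3) without antigen after PBS, 9.05 ± 0.59 with transient and 7.47 ± 0.18 with persistent antigen. It fell by 1.57 under transient antigen with the block (adjusted p = 0.0017), where Il2rb rose. Il21, a cytokine of helper T cells, was 4.06 ± 0.29 and 4.07 ± 0.46 without antigen and with transient antigen after PBS, and 8.66 ± 1.06 with persistent antigen, the regime in which Il2 was not above the arrays without antigen. Persistent minus transient after PBS called 1 of the 10 genes higher and 0 lower without the block, and 1 higher and 2 lower with it (Il21, Il7r and Il15ra), against 0.929% and 11.4% of all genes. Il4ra fell with the block in persistent minus none, by 0.68 after PBS (adjusted p = 0.0082) and by 0.75 after FGK (adjusted p = 0.011).

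**Figure D4:**
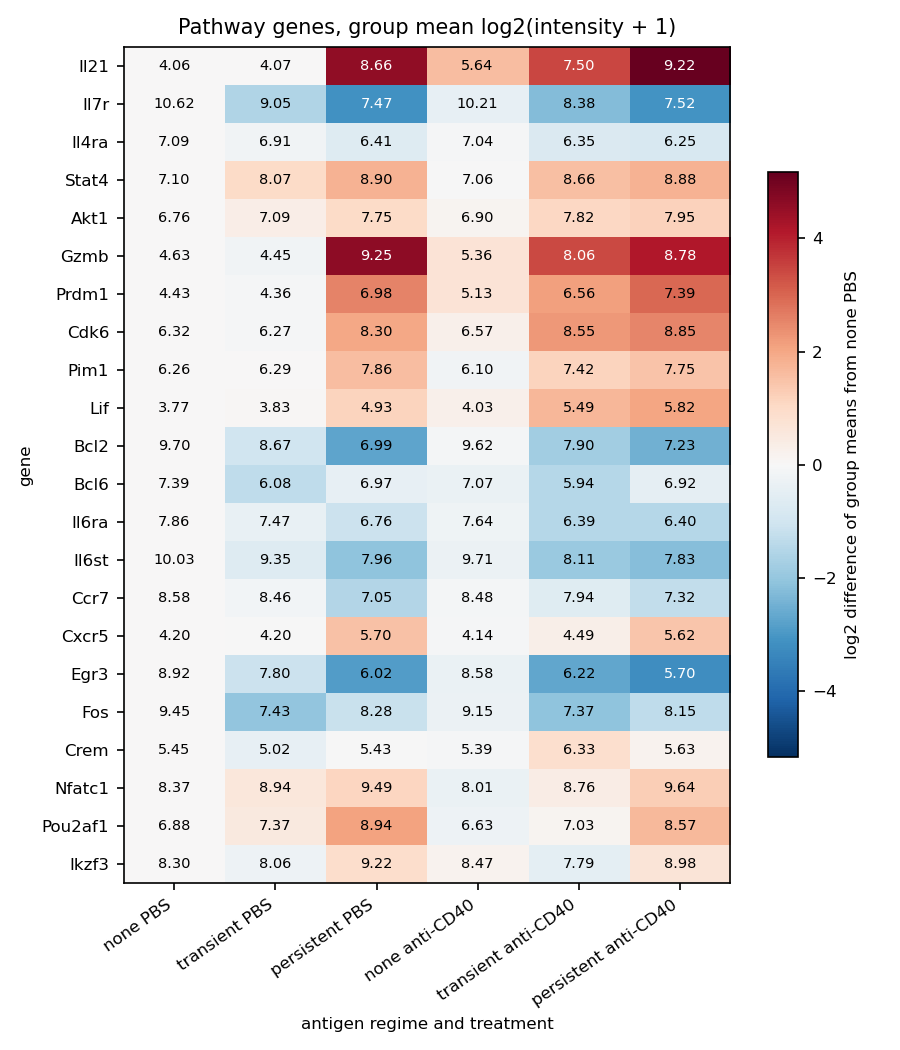
Group mean log2(intensity + 1) (printed numbers) of 22 genes of the pathway lists (y axis) in the 6 groups (x axis); colour is the difference of the group mean from none PBS, red higher and blue lower. Il21, Gzmb, Prdm1 and Cdk6 stand near the none PBS value in transient PBS and above it in persistent PBS, transient FGK and persistent FGK; Il7r, Bcl2 and Egr3 stand below it.

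Of 27 genes listed as raised by IL-2 and STAT5, all measured, persistent minus none after PBS called 3 higher and 3 lower without the block and 7 higher and 8 lower with it, against 3.57% and 16.7% of all genes. The median of the list was -0.08, against -0.03 over all genes. Gzmb (granzyme B), Prdm1 (the repressor Blimp-1) and Cdk6 (a cell cycle kinase) rose by 4.62 ± 0.66, 2.55 ± 0.46 and 1.99 ± 0.37, while Bcl2, a survival gene, fell by 2.72 (adjusted p = 0.00029). With the block, transient antigen with FGK raised 8 of them and lowered 4 relative to none FGK (14% of all genes were called), with Gzmb at 2.70 ± 0.35 and Bcl2 at -1.72 ± 0.20. Under transient antigen after PBS, where Il2 and Il2rb rose with the block, it called 0 of the 27 higher and 1 lower (Bcl2, -1.03 ± 0.17), against 2.89% of all genes. Pim1, a kinase gene and STAT5 target, was 6.26 ± 0.82 and 6.29 ± 0.53 without antigen and with transient antigen after PBS, and 7.86 ± 0.99 with persistent antigen.

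For 4 genes of this list the response to antigen duration differed with anti-CD40 in the blocked fit. The persistent minus transient difference with FGK minus that with PBS was -4.41 ± 0.44 for Gzmb (adjusted p = 5.3e-05), -1.91 ± 0.40 for Cdk6, -1.47 ± 0.34 for Pim1 (adjusted p = 0.031) and 0.98 ± 0.24 for Ccnd2 (adjusted p = 0.039). It called 1 of 27 higher and 3 lower, against 1.79% of all genes, and 0 of 27 without the block, where 0% of all genes were called. It called 0 of 9 members by either fit, with 0 at an unadjusted p under 0.05. The corresponding contrast for transient antigen minus none called 0 of 9 members (1 and 2 at an unadjusted p under 0.05), against 0% of all genes without the block and 3.69% with it.

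Of 12 genes listed as lowered by IL-2 and STAT5, 9 were measured. Persistent minus none after PBS called 1 higher and 3 lower without the block and 2 higher and 4 lower with it, against 3.57% and 16.7% of all genes. The median of the list was -0.43, against -0.03 over all genes. Il7r, Il6st (the shared receptor chain gp130, -2.06 ± 0.38, adjusted p = 0.0070) and Ccr7 (a lymph node homing receptor, -1.53 ± 0.25, adjusted p = 0.0035) fell, and Cxcr5, the follicle homing receptor, rose by 1.50 ± 0.22 (adjusted p = 0.0017). Bcl6, a repressor of the STAT5 programme, fell with the block under transient antigen (-1.32 ± 0.20, adjusted p = 0.00073), from 7.39 ± 0.17 to 6.08 ± 0.43, and stood at 6.97 ± 0.13 under persistent antigen.

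The factors that switch Il2 on or off (24 of 26 measured) moved in both directions. Persistent minus none after PBS called 1 higher and 1 lower without the block and 3 higher and 6 lower with it, against 3.57% and 16.7% of all genes. Transient minus none after PBS called 3 lower with it, against 2.89%. Fos, an AP-1 component, was 9.45 ± 0.71 without antigen after PBS, 7.43 ± 0.35 with transient and 8.28 ± 0.53 with persistent antigen, lowest in the regime where Il2 was highest, and fell by 2.02 in transient minus none with the block (adjusted p = 0.0050). Egr3, an early gene of receptor signals, was 8.92 ± 0.38, 7.80 ± 0.50 and 6.02 ± 0.58 in the same order, and fell by 2.90 in persistent minus none (adjusted p = 0.0020). Ikzf3 (Aiolos, a repressor of Il2) was 8.30 ± 0.30, 8.06 ± 0.17 and 9.22 ± 0.04, and rose by 1.16 ± 0.22 from transient to persistent antigen (adjusted p = 0.020). In that comparison Il2 fell with the block. Of the same list, Pou2af1 rose there by 1.57 ± 0.21 with the block (adjusted p = 4.7e-05), while Egr3 and Dgkz fell. Nfatc1, an NFAT factor, was 8.37 ± 0.67, 8.94 ± 0.06 and 9.49 ± 0.31 in the same order. It rose by 1.12 ± 0.22 in persistent minus none with the block (adjusted p = 0.0010). With FGK, Ikzf3 rose by 1.11 ± 0.18 from transient to persistent antigen with the block (adjusted p = 0.014), where Il2 was not called. Pou2af1 rose there by 1.42 ± 0.24 (adjusted p = 0.023). Crem, whose product includes a repressor of Il2, was 1.31 ± 0.26 higher with FGK than with PBS under transient antigen (adjusted p = 0.039), at 5.02 ± 0.10 after PBS and 5.87 and 6.78 after FGK. The part of these factors in the Il2 result was not tested.

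Of 16 genes of JAK-STAT and adaptor signalling 15 were measured, and of 15 symbols listed for other negative regulators 13 were found. With the block, persistent minus none after PBS called 2 of the 15 higher and 3 lower, against 16.7% of all genes, with Stat4, the transducer of IL-12, at 1.80 ± 0.22 and Akt1 at 0.98 ± 0.18 (adjusted p = 0.00043). Of the other negative regulators it called 1 of 13 higher, Pias2, at 0.73 ± 0.19 (adjusted p = 0.011). Without the block the first list had 1 higher, Stat4 (adjusted p = 0.021), and 0 lower, against 3.57% of all genes.

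The genes most like each called member over the 16 arrays, after each replicate number's mean was subtracted, were chosen from 10608 genes above the median probe set. For Il2 they were Tiam1 (r = 0.90), Usp38 (r = 0.88) and Tmem18 (r = 0.86), for Il2ra Prmt7, Rcl1 and Trmt6 (r = 0.92 each), and for Il2rb Mrps21, Mvb12a and Flna (r = 0.97 each). The correlations are descriptions, since the arrays share their groups and the genes were picked as the highest.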

How the data were processed

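RNA of sorted T cells was amplified in a pair of rounds and hybridised to 1 Affymetrix mouse array per sample, per the labels' protocols. The deposited values are linear intensities for 45101 probe sets, made by the authors with RMA per the submitters' processing notes (version not given in the sources used here), and log2(intensity + 1) was analysed as it stands, unscaled. Names came from the platform annotation: 35890 probe sets were listed, 34945 with 1 symbol and 932 with several; 9211 were not listed and 64 array controls were left out. The second Il2 probe set also carries another symbol and was not used. The probe set with the highest mean represented each of 18193 genes. limma 3.58.1 (R 4.3.3, lmFit and eBayes with an intensity trend) fitted 6 group means to all 16 arrays, with Benjamini-Hochberg adjustment over all genes at 0.05, and again with the replicate number as a block.

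Deviations from group means correlated between arrays of the same number in all 36 pairs (0.48 to 0.81, median 0.68). In 70 other pairs they ran from -0.81 to 0.60 (median -0.53), so the ranges overlap. Subtracting means of 2 or 3 arrays lowers the latter in part. For 16 of 16 arrays the most similar array of another group had the same number. The pairing by number thus comes from the data, since the labels do not say what a number shares. The genes and lists were chosen with earlier results of these data known. Pathway genes named are up to 4 per list and comparison with the largest difference among those called. Pim1 fell under this rule in both contrasts of FGK with PBS, and Ccnd2 in 1 of them. Data for persistent minus none after PBS were simulated with the replicate effects and the spread of the blocked fit (200 changed genes of 18193). Without the block 44.8%, 80.6% and 95.5% of changes of 1, 2 and 3 (log2) were recovered, and with it 88.1%, 97.0% and 100%. Of the unchanged genes 1 was called without the block and 11 with it. The higher recovery with the block was built into these data, so it cannot show which fit suits the real arrays. The real comparison called 3042 genes with the block. The number of arrays limits precision. Alternatives were a pseudocount of 16, dim genes left out, the mean of all probe sets, cyclic loess, no trend, compared groups alone, each array left out, and blocks.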

Additional observations from a re-analysis of the deposited data

Results flagged for a closer look

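The fit over all 45037 probe sets was chosen after the values were seen. With the replicate block, it called a difference between FGK and PBS in the response of the Il2ra probe set 1420692_at to transient antigen. The transient minus none difference with FGK minus that with PBS was 2.45 ± 0.61 (adjusted p = 0.043), as tested by the contrast itself. The arrays behind it read 7.51 and 5.44 with transient antigen and FGK, 4.09 and 4.55 with FGK alone, 3.74, 4.12 and 3.88 with transient antigen after PBS and 4.12, 4.21 and 4.29 without antigen after PBS. Without the block the adjusted p was 0.96.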

How the results depend on the processing

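Members called among 9 changed as follows, with the share of all genes called in the same fit in brackets, and no direction reversed. Against the unblocked counts, the replicate block gave 2 in transient minus none after PBS (Il2, Il2rb; 2.89%), 1 in persistent minus transient after PBS (Il2; 11.4%), 2 in transient minus none with FGK (Il2ra, Il2rb; 14%) and 1 in persistent minus none with FGK (Il2rb; 16.4%), in place of 0 each. A block of the runs of numbers in the sample descriptions gave 2 (2.2%), 1 (13.2%), 1 (12.2%) and 1 (13.9%). The compared groups alone gave 0 in place of 1 in persistent minus none after PBS (2.05%), and leaving out 1 array gave 0 to 1 there (1.68% to 3.89%). The mean of all probe sets gave 1 in persistent minus none with FGK (Il2rb, 2.7%) and 1 in FGK minus PBS under transient antigen (Il2ra, 1.08%).

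With the replicate block, transient FGK minus persistent PBS gave 2 (Il2, Socs3; 2.39%) when these groups were fitted alone. Il2ra, 1 call, was added in FGK minus PBS under transient antigen when dim genes were left out, with the mean of all probe sets, with cyclic loess and with no trend (18.7%, 9.7%, 11.7% and 11.1%), and likewise in the contrast of transient minus none between FGK and PBS (7.57%, 3.1%, 4.25% and 3.99%). Replicate numbers 1 and 3 alone, chosen after seeing the data, gave 1 (Il2rb) in transient minus none after PBS (2.6%) and with FGK (11.1%), and 1 (Cish) in FGK minus PBS under transient antigen (11.8%). Leaving out 1 array with the block gave 1 to 2 in transient minus none after PBS (1.16% to 3.24%), 1 to 2 in persistent minus transient after PBS (6.95% to 13.2%), 0 to 2 in transient minus none with FGK (5.86% to 15.8%), 1 to 3 in persistent minus none with FGK (8.03% to 17.9%) and 0 to 1 in FGK minus PBS under transient antigen (3.04% to 11.8%). The blocked Il2 rise under transient antigen after PBS was lost without none PBS replicate 2 or transient PBS replicate 2 or 3 (adjusted p between 0.063 and 0.080). Where a block or a scaling moved a count, the cause was not tested; leaving out arrays leaves fewer samples. Of the refitted differences of called members, 319 kept their side of the threshold, 15 lost it and 12 gained it. Levels near the median probe set (Il2, Socs1, the second Il2ra probe set in most groups) are little above what an array gives without signal.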
